A study of Homo sapiens and Mus musculus with 27 samples.

Results

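LM2 is a human breast cancer line, known as a lung-metastatic derivative of MDA-MB-231. Its cells were profiled at 3 labelled levels of LifeAct, a short peptide that binds filamentous actin and is widely used, fused to a fluorescent protein, to show actin filaments in living cells. The comparison described here sets the 3 libraries labelled as high in LifeAct expression against the 3 labelled as low, which together are 6 of the 27 libraries of the series, chosen by their labels alone. The 3 negative libraries of the same experiment, whose treatment label is control, entered the same model and give the first step of the reporter level, low against negative. All 9 samples carry the genotype label WT and the breast cancer cell type label, and all are total RNA depleted of ribosomal RNA. The other libraries of the series, MKL1 experiments in LM2 and mouse 4T1 cells, are not used here. The labels do not give the LifeAct construct, the way in which the levels were set, or whether the replicates were separate cultures, so the p-values measure only the spread between these samples, which may be technical. The LifeAct construct itself has no entry in the count table, and the labelled order of the levels therefore has no check from the counts.

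Actin filaments are assembled from monomers by nucleators such as the Arp2/3 complex and the formins, and taken apart by cofilins. Free actin monomers bind the coactivators MRTFA and MRTFB (MRTFA is also called MKL1) and hold them out of the nucleus; when monomers are used up, MRTF joins the serum response factor SRF at CArG boxes in the promoters of cytoskeletal genes. NF-kB is a family of transcription factors held back by inhibitory IkB proteins. Once released, it binds kappaB sites and induces cytokines, chemokines and its own inhibitors, among them TNFAIP3. These are textbook descriptions and were not measured here.

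The 9 libraries held 15581289 to 23678322 counts, and of 59453 gene names 21869 passed a filter on low counts and were tested. Replicates were close, with a biological coefficient of variation of 0.0439 across the model, but not equally so. Chi-square per gene, which grows with the difference between libraries, was 4.43 and 3.86 for high replicate 1 against replicates 2 and 3. Between high replicates 2 and 3 it was 1.67. Negative replicate 3 stood apart as well (4.64 and 3.20, against 1.70 between replicates 1 and 2), and low pairs had 1.395 to 1.66. Levels are given as CPM, counts scaled to a common library size by the TMM method, which corrects for composition, and they are not per length, so they are compared between libraries and not between genes. The LM2 cell identity was checked with genes that such cells are known to have: VIM, CD44, LGALS1, S100A4, ANXA1, CAV1 and EGFR, whose summed level was 4846 to 5016 CPM in high and 4127 to 4148 CPM in low libraries. Among these S100A4 was lower, at 211.8 to 222.5 CPM in high and 261.4 to 267.3 CPM in low libraries, LGALS1 overlapped, and the others were higher. Of 6 genes known to be low or silent in this line, ESR1, PGR, CDH1 and KRT20 stayed under 2 CPM in every library. EPCAM was at 5.41 to 6.20 CPM in high and 4.76 to 6.69 CPM in low libraries. GATA3 was at 9.27 to 10.95 CPM in high and 7.32 to 8.82 CPM in low libraries, with no overlap. The 6 summed to 16.0 to 18.5 CPM in high and 13.03 to 16.7 CPM in low libraries. Leukocyte markers summed to 6.72 to 8.78 CPM in high and 10.6 to 11.01 CPM in low libraries, with MS4A1 at 0 in all 9. Among them CSF1R was at 2.62 to 3.81 CPM in high and 6.68 to 7.79 CPM in low libraries, and ITGAM went the other way, at 1.05 to 1.92 CPM in high and 0.11 to 0.304 CPM in low libraries. Fibroblast markers summed to 24.7 to 27.4 CPM in high and 28.5 to 30.7 CPM in low libraries. Of these PDGFRB was lower, at 7.77 to 9.93 CPM in high and 14.8 to 16.4 CPM in low libraries, while the ranges of LUM (2.58 to 3.66 CPM in high and 1.13 to 1.26 CPM in low libraries), DCN and COL3A1 lay higher in high libraries. Endothelial markers summed to 14.7 to 16.1 CPM in high and 35.6 to 38.3 CPM in low libraries, with CDH5 under 1 CPM throughout. The lower sum lay in PECAM1, at 6.57 to 8.20 CPM in high and 29.4 to 30.8 CPM in low libraries, while KDR was at 4.54 to 5.16 CPM in high and 3.13 to 3.83 CPM in low libraries, with no overlap. The part of other cells in the results was not tested.

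LifeAct high and low cells differed in about every other gene tested, and many more genes kept moving from negative through low to high than turned back. In LifeAct high against low, 5828 genes were higher and 5176 lower at an adjusted p under 0.05 by edgeR's quasi-likelihood test, which is 26.6% and 23.7% of the 21869 tested (50.3% in either direction). Changes of at least 2-fold were fewer, with 683 genes higher (3.12%) and 1354 lower (6.19%). When libraries were scaled by their totals alone, 4655 genes were higher and 6437 lower. The CPM ranges of the high and low libraries did not overlap for 12631 genes (57.8%). In low against negative, 5677 genes were higher (26%) and 5169 lower (23.6%), 49.6% in either direction, of which 1193 (5.46%) and 1014 (4.64%) by at least 2-fold. Over the whole range, high against negative, 7863 were higher (36%) and 7691 lower (35.2%), 71.1% in either direction, of which 2488 (11.4%) and 3578 (16.4%) by at least 2-fold.

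Of the genes called at both steps, 3164 kept rising (14.5% of those tested) and 2700 kept falling (12.3%), while 434 turned down, being higher in low than negative and lower in high than low (1.98%), and 484 turned up, the opposite case (2.21%). By library totals 788 genes turned down and 260 turned up, so the numbers of turning genes depend on the scaling. Counts of list members that turned by library totals, given below, are to be read beside these numbers. With each step required to reach 1.5-fold, 556 genes kept rising (2.54%), 1072 kept falling (4.9%), 87 turned down (0.398%) and 33 turned up (0.151%). Another 2180 genes were higher (9.97%) and 2042 lower (9.34%) in high than low without passing the test in low against negative. Both steps use the 3 low libraries, so the error of the low group enters them with opposite signs, and no test of the overlap was made.

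**Figure D1:**
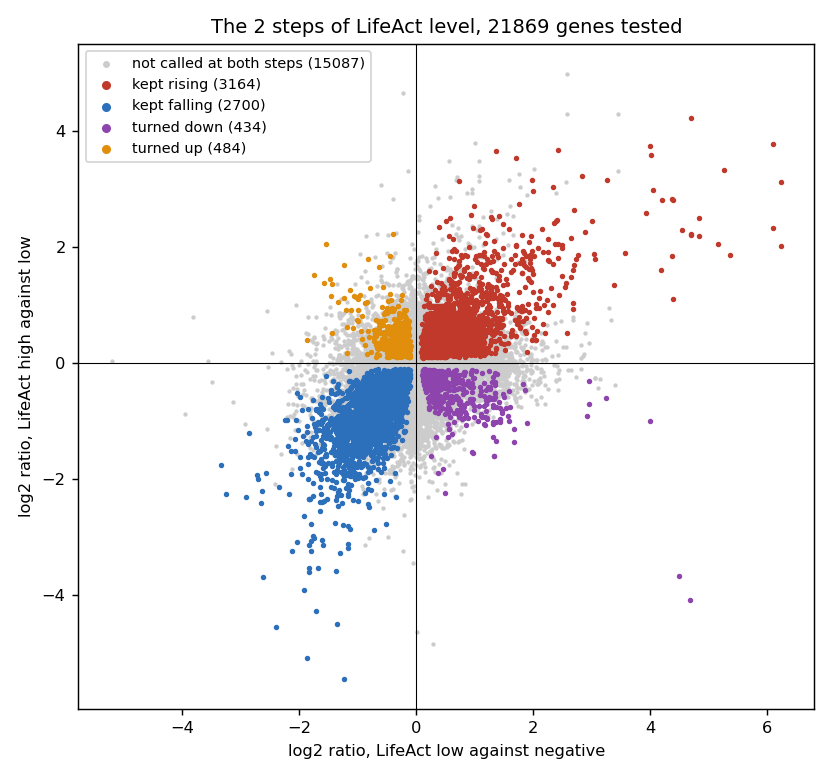
Each point is 1 of the 21869 genes tested, with its log2 ratio in LifeAct low against negative on the horizontal axis and in LifeAct high against low on the vertical axis; colours mark the 3164 genes that kept rising, 2700 that kept falling, 434 that turned down and 484 that turned up, and grey the genes not called at both steps. Most coloured points lie at the upper right and lower left, where both steps have the same sign.

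UCA1, IL1A, TNFAIP3 and MT-RNR1 had been given as markers of this comparison with results of these data known, so their tests are no independent support. UCA1 (chr19:15828206-15836328, plus strand, GRCh38), a long noncoding RNA first described in bladder cancer, stood at 1.48, 1.75 and 1.96 CPM in negative, 3.67, 5.35 and 4.39 CPM in low and 58.4, 53.4 and 55.4 CPM in high libraries. Most of its rise thus lay in the second step, with a log2 ratio of 3.65 ± 0.097 (SE) in high against low and 1.36 ± 0.18 (SE) in low against negative (edgeR, adjusted p = 3.9e-22 and 2.1e-07). IL1A (chr2:112773925-112784493, minus strand), the cytokine interleukin-1 alpha, was at 3.38, 3.82 and 4.64 CPM in negative, 9.19, 9.28 and 10.2 CPM in low and 54.2, 59.1 and 52.8 CPM in high libraries, 5.75-fold higher in high than low. TNFAIP3 (chr6:137867214-137883312, plus strand), which encodes A20, an enzyme that restrains NF-kB signalling, behaved otherwise. It was at 41.8, 45 and 44.1 CPM in negative and 44.1, 47 and 44.6 CPM in low libraries, whose ranges overlap, and at 262, 244 and 248 CPM in high libraries. Its log2 ratio was 2.47 ± 0.049 (SE) in high against low (edgeR, adjusted p = 1.2e-24) and 0.052 ± 0.055 (SE) in low against negative (edgeR, adjusted p = 0.45), so that no change passed the test at the first step. In bulk RNA, a larger share of cells with a gene switched on and more RNA per cell cannot be told apart for any of these genes.

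MT-RNR1, the mitochondrial 12S ribosomal RNA (chrMT:648-1601, plus strand), was the marker that turned back. It was at 2.37, 3.82 and 1.96 CPM in negative, 102, 80.02 and 27.5 CPM in low and 2.75, 3.66 and 6.07 CPM in high libraries. Low libraries were all above the others, but they differed among themselves by several-fold, with replicate 3 the lowest. The log2 ratio was -4.08 ± 0.32 (SE) in high against low (edgeR, adjusted p = 1.8e-11), beside 4.68 ± 0.36 (SE) in low against negative. MT-RNR2, the 16S ribosomal RNA, moved along with it and stood at 2.73, 3.82 and 3.42 CPM in negative, 108, 86.4 and 31.7 CPM in low and 3.45, 4.9 and 9.6 CPM in high libraries. Both are targets of the kits that deplete ribosomal RNA, and both together made up a mean of 0.000988% of counts in high and 0.0149% in low libraries (exact permutation test, two-sided, p = 0.1, the smallest that 3 against 3 allows). The part of the depletion step in these values was not tested.

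**Figure D2:**
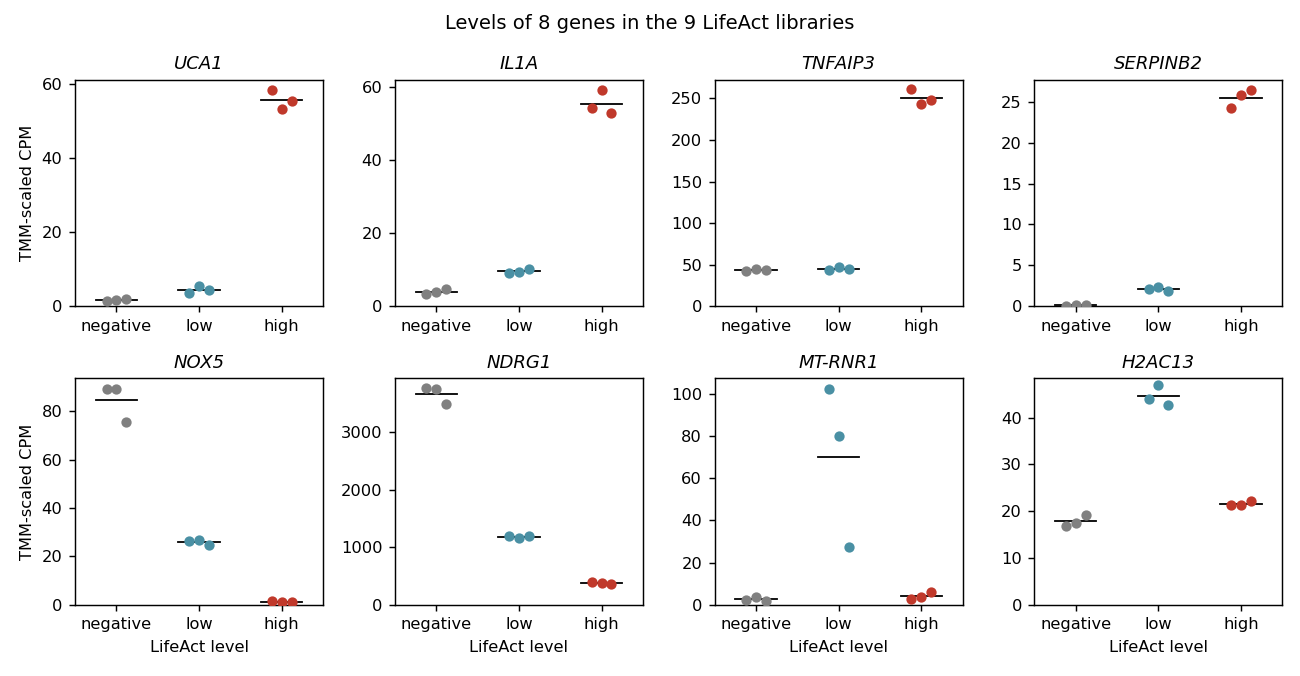
TMM-scaled CPM of 8 genes in the 9 libraries, by LifeAct level from negative through low to high; points are libraries and bars the mean of 3. UCA1, IL1A and SERPINB2 climb over both levels, TNFAIP3 is raised in high libraries, its first step not having passed the test, NOX5 and NDRG1 fall at both steps, and MT-RNR1 and H2AC13 are highest in low libraries.

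The largest rises in high over low cells included a protease inhibitor, a keratin, a matrix protease and stress-induced genes. SERPINB2 (chr18:63871692-63903888, plus strand), an inhibitor of plasminogen activators, was at 24.3, 25.8 and 26.4 CPM in high and 2.13, 2.38 and 1.87 CPM in low libraries, a log2 ratio of 3.59 ± 0.12 (SE) (edgeR, adjusted p = 6.3e-20). It was nearly silent in negative libraries, at 0.0593, 0.194 and 0.122 CPM. KRT17, a keratin of activated and basal epithelium, was at 18.2, 18.2 and 17.9 CPM in high and 2.3, 2.02 and 1.91 CPM in low libraries, 8.72-fold higher in high cells, and had 1 count in all in the negative libraries. ALOXE3, a lipoxygenase-family enzyme of the skin barrier, was 8.84-fold higher in high than low libraries, SPX, which encodes the secreted peptide spexin, 6.23-fold, and BAMBI, a decoy receptor for TGF-beta family ligands, 5.85-fold. ATF3 (chr1:212565334-212620777, plus strand), a transcription factor induced by many stresses, was at 11.6, 9.77 and 10.8 CPM in negative, 26.5, 27.4 and 25.1 CPM in low and 154, 147 and 141 CPM in high libraries. Its second step was the larger, with log2 ratios of 2.49 in high against low and 1.29 in low against negative. MMP3, the matrix protease stromelysin-1, was at 20.9, 18.9 and 20.5 CPM in high and 3.34, 3.57 and 3.91 CPM in low libraries, and GADD45A, a growth-arrest and DNA-damage gene, at 227, 220.1 and 219 CPM in high and 40.9, 39.2 and 41 CPM in low libraries. The largest rises, and the largest falls given next, were picked among genes that passed the test with no CPM overlap between high and low libraries. Their separation is therefore no result, and their tests are no independent support. Among the 12 largest rises 1 was an unnamed clone.

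Among the largest falls were an oxidase, matrix-related genes and a vesicle GTPase. NOX5 (chr15:68930525-69062762, plus strand), a calcium-regulated NADPH oxidase, was at 89.2, 89.2 and 75.4 CPM in negative, 26.3, 26.6 and 24.6 CPM in low and 1.53, 1.31 and 1.1 CPM in high libraries. In high against low its log2 ratio was -4.27 ± 0.13 (SE) (edgeR, adjusted p = 1.1e-20), larger than its first step of -1.71. CCN4, a secreted matricellular protein, was at 2.23, 2.61 and 3.09 CPM in high and 16.8, 17.1 and 19.2 CPM in low libraries, and RAB3B, a small GTPase of secretory vesicles, at 3.32, 2.68 and 2.32 CPM in high and 14.5, 13.3 and 14 CPM in low libraries. ITGA10, a collagen-binding integrin chain, was at 258, 249 and 248 CPM in negative, 26.7, 25.6 and 27.2 CPM in low and 6.33, 4.83 and 5.24 CPM in high libraries, so that both steps were large. PECAM1, an adhesion molecule best known from endothelium, fell likewise, to 8.2, 7.64 and 6.57 CPM in high, against 29.4, 30.8 and 29.7 CPM in low libraries. The log2 ratios in high against low were -2.11 for the long noncoding RNA FER1L4, -1.90 for the gamma-glutamyltransferase GGT5 and -1.89 for the phosphatase LHPP. ASB2, a ubiquitin ligase subunit that targets filamins, and DMBT1, a mucin-like scavenger receptor, turned down, unlike the other falls named in this paragraph. MT-RNR1, described above, turned down as well. ASB2 was at 12.9, 13 and 10.9 CPM in negative, 17.1, 18.1 and 16.9 CPM in low and 3.36, 2.94 and 4.69 CPM in high libraries.

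Most NF-kB, interleukin-1 and chemokine genes were higher in high than low cells. Of 33 tested members of a list of 36, 29 were higher in high than low cells, 1 was lower and 3 did not pass, beside 26.6% higher and 23.7% lower among all genes tested; the list median log2 ratio was 1.20 and that of all genes -0.036. In low against negative the same list had 23 genes higher and 6 lower with a median of 0.59, beside 26% and 23.6% of all genes. Of its members 22 kept rising and 4 turned up, beside 14.5% and 2.21% of all genes. The list was written with earlier results of these data in part known.

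Chemokines and cytokines had large ratios. CXCL8 (chr4:73740541-73743716, plus strand), which attracts neutrophils, was at 25.4, 29.1 and 32.1 CPM in negative, 77, 81.7 and 83.6 CPM in low and 416, 438 and 419.9 CPM in high libraries, 5.25-fold higher in high than low (log2 ratio 2.39 ± 0.052 (SE); edgeR, adjusted p = 4.6e-24). The related chemokine CXCL1 was at 55.3, 50.9 and 53.4 CPM in high and 14.4, 14.2 and 15.9 CPM in low libraries. CXCL2 was at 85.3, 75.4 and 79 CPM in high and 22.8, 20.05 and 22.8 CPM in low libraries, and CXCL3 at 34.8, 33.4 and 34.8 CPM in high and 8.81, 8.03 and 7.56 CPM in low libraries. High and low libraries did not overlap for these chemokines, as for 57.8% of all genes tested. The 4 were named for a small p or large steps, so their separation is no result. IL6, a cytokine of the acute phase response, was at 86.9, 78.6 and 83 CPM in high and 34, 34.1 and 32.2 CPM in low libraries, and CSF3, the granulocyte colony-stimulating factor, at 25.4, 22.9 and 21.7 CPM in high and 8.21, 7.32 and 7.43 CPM in low libraries. IL1B and PTGS2, an inflammatory cytokine and the inducible cyclooxygenase, had their larger step earlier. IL1B had a log2 ratio of 0.23 in high against low, beside 0.98 in low against negative, and PTGS2 had 0.35, beside 1.58.

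Components and inhibitors of the pathway were higher as well. NFKBIE, which encodes an IkB protein, had a log2 ratio of 1.39 ± 0.066 (SE) in high against low, RELB, a NF-kB subunit, 1.21 ± 0.064 (SE), and BIRC3, a ubiquitin ligase of the pathway, 1.59 ± 0.064 (SE). The subunits NFKB1, NFKB2 and RELA had smaller ratios of 0.73, 0.78 and 0.48. The IkB gene NFKBIA turned up, at 212, 212 and 203 CPM in negative, 167, 162 and 165 CPM in low and 214, 199.6 and 202 CPM in high libraries, so that high and negative libraries overlapped and low libraries lay below both. NFKBIZ, TNFAIP2 and LTB also turned up. The exceptions were IL1RAP, an interleukin-1 receptor chain that was lower in high than low (log2 ratio -0.20), and ICAM1, IRAK2 and ZC3H12A, which did not pass, with ratios of -0.092, -0.055 and 0.02.

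**Figure D3:**
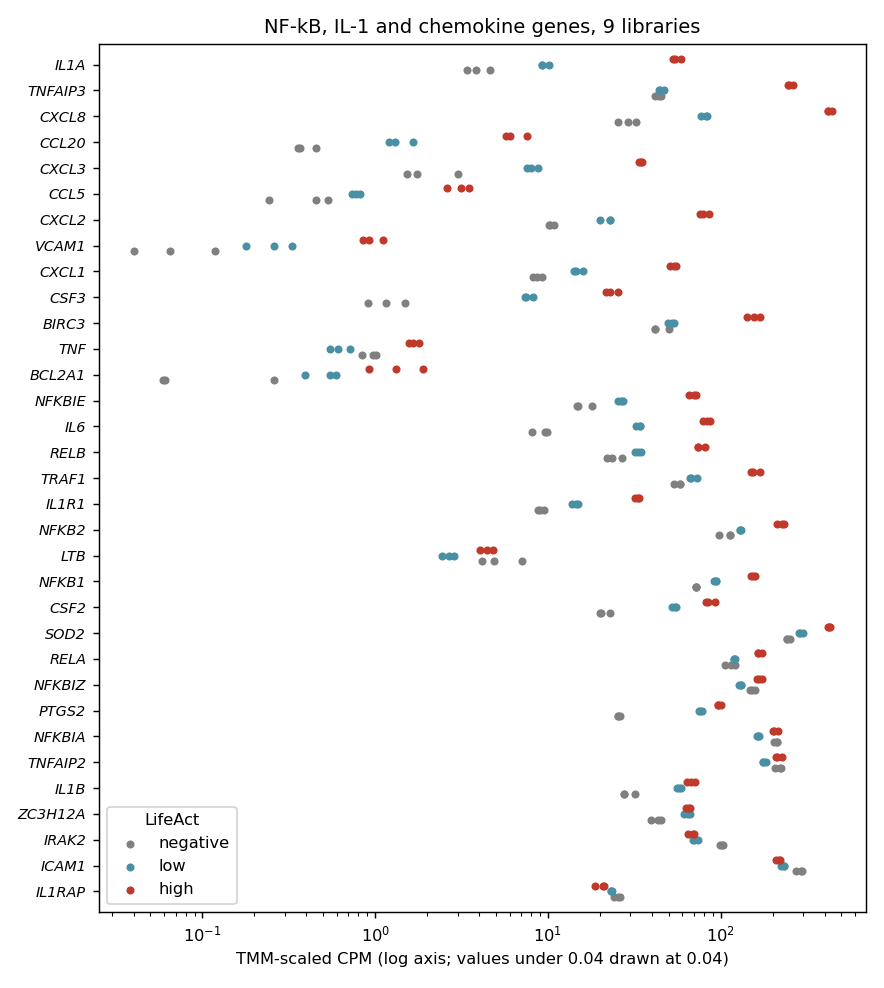
TMM-scaled CPM on a log axis of the 33 tested NF-kB, interleukin-1 and chemokine genes, ordered from the lowest log2 ratio in high against low at the bottom to the highest at the top; each point is a library, and 1 value under 0.04 is drawn at 0.04. For IL1A, CXCL8 and CXCL3 the 3 levels are separate and ordered, for TNFAIP3 the negative and low libraries overlap, and for NFKBIA the low libraries are the lowest.

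The promoters of these genes were searched for kappaB letters. The kappaB consensus was searched on both strands of the 250 bases before the RefSeq start (GRCh38.p14). A match was present in 12 of the 25 promoters found for the 29 higher genes (48%) and in 0 of 1 for the lower one. The share was 11.5% of the 12211 promoters of genes tested and 9.57% of all 27305. The list was written for this pathway, so these shares cannot tell list membership from being higher in high cells. The promoter stretches of TNFAIP3, which rose at the second step, and of CXCL1, CXCL2 and CXCL3 are shown because they carry such matches in genes with large ratios; capitals mark the kappaB matches, overlapping ones joined, on the strand of the gene from 5′ to 3′. They lie at chr6:137867162-137867243 (TNFAIP3, plus strand), chr4:73869284-73869354 (CXCL1, plus strand), chr4:74099233-74099303 (CXCL2, minus strand) and chr4:74038728-74038798 (CXCL3, minus strand). All 4 stretches lie before the RefSeq start, but that of TNFAIP3 reaches into the Ensembl gene model given above and that of CXCL3 lies wholly inside its Ensembl model (chr4:74036589-74038807, minus strand).
TNFAIP3: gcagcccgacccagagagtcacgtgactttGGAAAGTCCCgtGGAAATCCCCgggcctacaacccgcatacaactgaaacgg
CXCL1: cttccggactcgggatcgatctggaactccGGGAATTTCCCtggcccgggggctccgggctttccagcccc
CXCL2: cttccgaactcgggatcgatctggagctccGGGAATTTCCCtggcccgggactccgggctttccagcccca
CXCL3: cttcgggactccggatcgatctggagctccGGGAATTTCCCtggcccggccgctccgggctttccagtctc
The 3 CXCL promoters share the same match, while that of TNFAIP3 has a pair of different matches side by side. A match is a description of letters and says nothing of binding in these cells.

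Most interferon-stimulated genes were higher too. Of 28 tested, 22 were higher in high than low cells, 2 lower and 4 did not pass, beside 26.6% higher and 23.7% lower among all genes tested, with a median log2 ratio of 1.01. Of the 28, 19 kept rising, beside 14.5% of all genes. IFIT2, an interferon-induced RNA-binding protein, was at 25.7, 25.8 and 28.2 CPM in negative, 94.5, 96.3 and 94.9 CPM in low and 356, 353 and 363 CPM in high libraries, with log2 ratios of 1.91 in high against low and 1.84 in low against negative, which are close in size. IFIT1, IFIT3 and OASL, further antiviral genes, had log2 ratios of 1.80, 1.61 and 1.51 in high against low. RSAD2, the antiviral enzyme viperin, was at 0 in the negative libraries and at 0.821, 0.238 and 0.348 CPM in low and 6.55, 6.73 and 6.07 CPM in high libraries. The 2 lower genes were IRF9, a subunit of the interferon-activated complex, and BST2, a viral restriction factor, with ratios of -0.76 and -0.26, and IFI27, STAT2, IRF7 and XAF1 did not pass.

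Immediate early and AP-1 genes, which cells switch on within minutes of a stimulus, held 8 of 24 genes that turned up (6 of 24 by library totals), beside 2.21% of all genes tested. In high against low 18 of 24 were higher and 2 lower, beside 26.6% higher and 23.7% lower among all genes, with a median log2 ratio of 0.53, but in low against negative 8 were higher and 12 lower, beside 26% and 23.6% of all genes, with a median of -0.13. EGR1 (chr5:138465479-138469303, plus strand), a zinc finger transcription factor, was at 76.2, 73.3 and 72.6 CPM in negative, 53, 55.2 and 54.8 CPM in low and 198, 190.2 and 200.3 CPM in high libraries. Its log2 ratio was 1.85 ± 0.046 (SE) in high against low (edgeR, adjusted p = 1.1e-22) and -0.45 ± 0.049 (SE) in low against negative (edgeR, adjusted p = 9.3e-09). KLF4, a transcription factor of epithelial differentiation, turned up in the same way, at 79.2, 79.2 and 73.8 CPM in negative, 56.3, 54.6 and 59 CPM in low and 129.8, 125 and 132 CPM in high libraries. JUN, JUNB, JUND, FOSB, IER2 and KLF6 complete the 8 that turned up. FOSL1 and MYC kept rising, with log2 ratios of 0.81 and 0.49 in high against low, and NR4A2 and BHLHE40 kept falling. FOS itself fell at the first step (log2 ratio -1.11) and had a ratio of -0.048 at the second, which did not pass.

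Feedback regulators of the MAP kinase pathway mostly kept falling. Of 17, 10 were lower and 4 higher in high than low cells, beside 23.7% lower and 26.6% higher among all genes tested. Of these 17, 9 kept falling and 2 kept rising, beside 12.3% and 14.5% of all genes. DUSP4, a phosphatase that inactivates ERK, was at 364, 356 and 355 CPM in high and 794, 801 and 785 CPM in low libraries. DUSP6, another ERK phosphatase, was at 105, 105 and 108 CPM in high and 197, 199 and 197 CPM in low libraries. The ranges of both did not overlap, as for 57.8% of all genes tested. SPRY1, a Sprouty inhibitor of receptor signalling, was at 93.5, 92 and 87.5 CPM in negative, 57, 54.6 and 60.8 CPM in low and 18.5, 16.3 and 17.1 CPM in high libraries, a log2 ratio of -1.73 ± 0.066 (SE) in high against low (edgeR, adjusted p = 1.5e-18). DUSP10, a phosphatase that acts mainly on JNK and p38, went the other way, with 69.1, 70.5 and 68.9 CPM in high and 20.1, 20.4 and 20.7 CPM in low libraries. Of the EGF receptor family and its ligands, with AXL, GAS6 and MET added, 7 of 13 were higher and 3 lower, beside 26.6% and 23.7% of all genes. EGFR itself was at 866, 824 and 847 CPM in high and 654, 685 and 667 CPM in low libraries, and the ligand HBEGF kept rising, with 88.9, 87.1 and 88.6 CPM in high and 58.4, 59.7 and 56.2 CPM in low libraries. EREG, AREG, TGFA and MET turned up (1 of the 13 by library totals), ERBB3 and EPGN kept falling, and NRG1 turned down. Among all genes 2.21% turned up, 12.3% kept falling and 1.98% turned down.

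Actin and its regulators changed in many members but by little. ACTB (chr7:5526409-5563902, minus strand), cytoplasmic beta-actin, was at 3224, 3147 and 2917 CPM in negative, 4027, 4148 and 4050.3 CPM in low and 4761, 4373 and 4588 CPM in high libraries, and ACTG1, gamma-actin, at 1814, 1829 and 1719 CPM in negative, 2064, 2084 and 2045 CPM in low and 2657, 2483 and 2533 CPM in high libraries. Their log2 ratios in high against low were 0.17 ± 0.037 (SE) and 0.31 ± 0.035 (SE) (edgeR, adjusted p = 0.00041 and 1.6e-08). MRTFA was slightly higher in high than low cells and MRTFB lower, with log2 ratios of 0.29 and -0.30. SRF was at 85.8, 74.9 and 81.3 CPM in high and 79.9, 85.1 and 78.6 CPM in low libraries; the ranges overlap and the ratio of -0.0045 ± 0.058 (SE) did not pass (edgeR, adjusted p = 0.95).

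Of 35 tested genes of the MRTF-SRF list, which counts the coactivator MRTFB besides targets, 24 were higher in high than low cells. Another 7 were lower and 4 did not pass, beside 26.6% higher and 23.7% lower among all genes. The list median log2 ratio was 0.19. By library totals 19 were higher and 7 lower, where all 21869 genes had 4655 higher and 6437 lower. ANKRD1, a muscle and stretch-responsive protein that is also a YAP target, was at 135, 135 and 130.4 CPM in negative, 324, 329 and 334 CPM in low and 828, 786 and 836 CPM in high libraries, 2.48-fold higher in high than low and 2.46-fold in low than negative. FLNC, the actin crosslinker filamin C, was at 367, 355 and 325 CPM in negative, 614, 628 and 593 CPM in low and 1345, 1231 and 1261 CPM in high libraries. CNN1, a smooth muscle calponin with few counts, had a log2 ratio of 1.01. The others rose by less: the tropomyosins TPM1, TPM3 and TPM4, the calponin CNN2, the myosin light chain MYL9 and the filamin FLNA rose by log2 ratios of 0.15 to 0.57. CCN1 rose at both steps (log2 ratio 0.47 in high against low and 0.86 in low against negative), while CCN2, its close relative in the matrix, turned down, at 144, 137 and 137 CPM in negative, 218.3, 215 and 220.1 CPM in low and 203, 191 and 199 CPM in high libraries. FHL1, TPM2 and TGFB1I1 kept falling, VCL and MYH10 turned down with CCN2, and MRTFB was the other lower gene.

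The CArG box, searched in the same way, was present in 5 of the 20 promoters found for the 24 higher MRTF-SRF genes (25%) and in 0 of 7 for the lower ones. It was present in 1.02% of promoters of genes tested and in 1.14% of all promoters. The list was written for this pathway, so a share above that of all promoters cannot be told apart from list membership. The promoter stretches of ACTG1 (chr17:81512854-81512923, minus strand) and CNN2 (chr19:1026489-1026558, plus strand) are shown as examples of targets that rose by little, with the CArG box in capitals (RefSeq, GRCh38.p14). The ACTG1 stretch lies inside its Ensembl gene model (chr17:81509413-81523847, minus strand), and that of CNN2 lies before its Ensembl model.
ACTG1: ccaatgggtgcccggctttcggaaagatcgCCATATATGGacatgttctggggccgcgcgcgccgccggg
CNN2: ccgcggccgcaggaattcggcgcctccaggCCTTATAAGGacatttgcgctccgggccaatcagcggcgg
These genes had log2 ratios of 0.31 and 0.40 in high against low.

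YAP-TEAD targets, genes of a mechanically sensitive pathway, were higher in 16 of 22 cases and lower in 3, beside 26.6% higher and 23.7% lower among all genes, with a median log2 ratio of 0.42. F3, the coagulation starter tissue factor, was at 131, 131 and 131 CPM in negative, 279, 279 and 284 CPM in low and 642, 619 and 626 CPM in high libraries, and THBS1, thrombospondin 1, at 1016, 972 and 986 CPM in high and 571, 562 and 560.4 CPM in low libraries. GADD45B, a stress-induced regulator, had a log2 ratio of 1.55 in high against low. NT5E and PTPN14 kept falling and CCN2 turned down.

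Genes of actin assembly and turnover had 24 of 43 members higher, 9 lower and 10 that did not pass. All genes had 26.6% higher and 23.7% lower, and the list median log2 ratio was 0.16. By library totals 19 members were higher and 10 lower, where all 21869 genes had 4655 higher and 6437 lower. Of the Arp2/3 complex, ACTR2, ACTR3, ARPC1A, ARPC2, ARPC3, ARPC4 and ARPC5 were higher by log2 ratios of 0.17 to 0.33, and ARPC1B (-0.065) did not pass. Of the formins, DAAM1 and DIAPH3 had the largest ratios of the list's risers together with the cofilin CFL2, at 0.79, 0.60 and 0.71, while DIAPH2 was lower (-0.33). TMSB4X, thymosin beta-4, which sequesters actin monomers, kept falling, at 1318, 1265 and 1279 CPM in negative, 888, 865 and 862 CPM in low and 617, 561 and 579.6 CPM in high libraries. The cofilin phosphatases SSH1 and SSH3, the kinase LIMK1 and the severing protein GSN were lower too, with log2 ratios of -0.64, -0.67, -0.25 and -0.40. RND3, a small GTPase, was at 52.5, 49.4 and 54.4 CPM in negative, 99.99, 101 and 104 CPM in low and 232, 235 and 238 CPM in high libraries, and RHOA, at 551, 513 and 535 CPM in high and 536, 534 and 529.9 CPM in low libraries, did not pass.

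Most collagen and matrix genes were lower. Of 25, 15 were lower and 7 higher, beside 23.7% lower and 26.6% higher among all genes, with a median log2 ratio of -0.18, and 11 kept falling, beside 12.3% of all genes. LAMA3, a laminin chain of basement membranes, was at 71.8, 65.8 and 65.2 CPM in high and 150.1, 151 and 149 CPM in low libraries. LAMB1, another laminin chain, was at 214, 208 and 209 CPM in high and 380.03, 387 and 387 CPM in low libraries. SPARC, a collagen-binding matrix protein, was at 0.786, 0.457 and 1.27 CPM in high and 2.79, 3.69 and 3.82 CPM in low libraries. FN1, fibronectin, kept falling, with 897, 806 and 836 CPM in high and 1379.6, 1399 and 1385 CPM in low libraries, while LAMB3, COL12A1 and THBS1 kept rising. COL6A3, a collagen VI chain, passed the test at the second step and not at the first, at 65.3, 69 and 64 CPM in negative, 65.5, 67.2 and 66.6 CPM in low and 27.3, 21.9 and 23.8 CPM in high libraries. Among 30 focal adhesion and integrin genes 11 were higher and 8 lower, near the 26.6% higher and 23.7% lower of all genes. By library totals 9 were higher and 14 lower, where all 21869 genes had 4655 higher and 6437 lower. The list had no direction that held under both scalings. The integrin chains ITGB4, ITGB5 and ITGA1 kept falling, with log2 ratios of -1.09, -0.76 and -0.64 in high against low, and the adaptors TLN2, FERMT2 and TNS1 kept rising.

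Secreted proteases and TGF-beta response genes were mixed. Of 20 protease and inhibitor genes 10 were higher and 6 lower, beside 26.6% higher and 23.7% lower among all genes, with MMP1, interstitial collagenase, at 20.7, 21.4 and 20.04 CPM in negative, 47.2, 50.1 and 46.3 CPM in low and 108, 110.1 and 106 CPM in high libraries. Of 18 TGF-beta response genes 8 were higher and 9 lower, beside 26.6% and 23.7% of all genes. Among them INHBA, a subunit of activin A, had a log2 ratio of 1.79, and LTBP1, which tethers latent TGF-beta to the matrix, had -0.87. Of 13 tested genes of a lung metastasis list for this line, 8 were higher and 3 lower in high than low cells, beside 26.6% and 23.7% of all genes. SPARC, TNC and LTBP1 were the lower ones, and EREG, ID1 and FSCN1 turned up, beside 2.21% of all genes.

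Hypoxia and glycolysis genes mostly fell. Of 28, 20 were lower and 3 higher in high than low cells (median log2 ratio -0.35), beside 23.7% lower and 26.6% higher among all genes. In low against negative 24 were lower (median -0.45), beside 23.6% of all genes, and 19 kept falling, beside 12.3%. NDRG1, a hypoxia-induced gene and known metastasis suppressor, was at 3770.2, 3761 and 3494 CPM in negative, 1200.3, 1167 and 1194 CPM in low and 388, 372 and 369 CPM in high libraries. Its steps were of like size, with log2 ratios of -1.66 ± 0.037 (SE) in high against low (edgeR, adjusted p = 9.0e-24) and -1.63 ± 0.036 (SE) in low against negative. VEGFA, the angiogenic growth factor, was at 169, 153 and 160.2 CPM in high and 299.6, 308 and 302 CPM in low libraries. The aldolase ALDOC and DDIT4, an inhibitor of mTORC1, had log2 ratios of -1.46 and -1.33, and the abundant glycolytic enzymes PGK1, ENO1 and LDHA smaller ones of -0.37, -0.24 and -0.16. ADM, adrenomedullin, turned up, and the hexokinases HK1 and HK2 kept rising.

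Most cholesterol synthesis and uptake genes were lower as well, 15 of 24 with 2 higher, beside 23.7% lower and 26.6% higher among all genes, and had a median log2 ratio of -0.27. SREBF1, a transcription factor of lipid synthesis, was at 61.8, 50.7 and 56.7 CPM in high and 140.2, 143 and 144 CPM in low libraries. SREBF2, its counterpart for cholesterol, was at 197, 179 and 192 CPM in high and 272, 277.5 and 281 CPM in low libraries. INSIG1, which retains both in the endoplasmic reticulum, was at 93.7, 94.3 and 92.2 CPM in high and 183, 188 and 189 CPM in low libraries. NSDHL, a sterol dehydrogenase, kept rising.

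The stress and lysosome lists held more genes that were higher than lower, where all genes tested had 26.6% higher and 23.7% lower. Of 21 unfolded protein and stress response genes 12 were higher and 3 lower, with DDIT3, the transcription factor CHOP, at 14.1, 13.3 and 12.6 CPM in negative, 29, 29.9 and 31 CPM in low and 97.9, 85.8 and 94 CPM in high libraries. CHAC1, a glutathione-degrading target of that response, and SESN2, a stress-induced sestrin, had log2 ratios of 1.37 and 1.27. Of 18 NRF2 and redox genes 11 were higher and 4 lower, with OSGIN1, a growth inhibitor induced by oxidative stress, and HMOX1, heme oxygenase 1, at 1.69 and 0.98; NOX5, the largest fall of all named genes, belongs to the same list. Of 12 heat shock genes 7 were higher and 1 lower, with small ratios up to 0.44 for HSPH1. By library totals 5 of them were higher and 3 lower, where all 21869 genes had 4655 higher and 6437 lower. Of 20 lysosome and autophagy genes 12 were higher and 4 lower, among them MAP1LC3B, which marks autophagosomes, at 0.96.

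**Figure D4:**
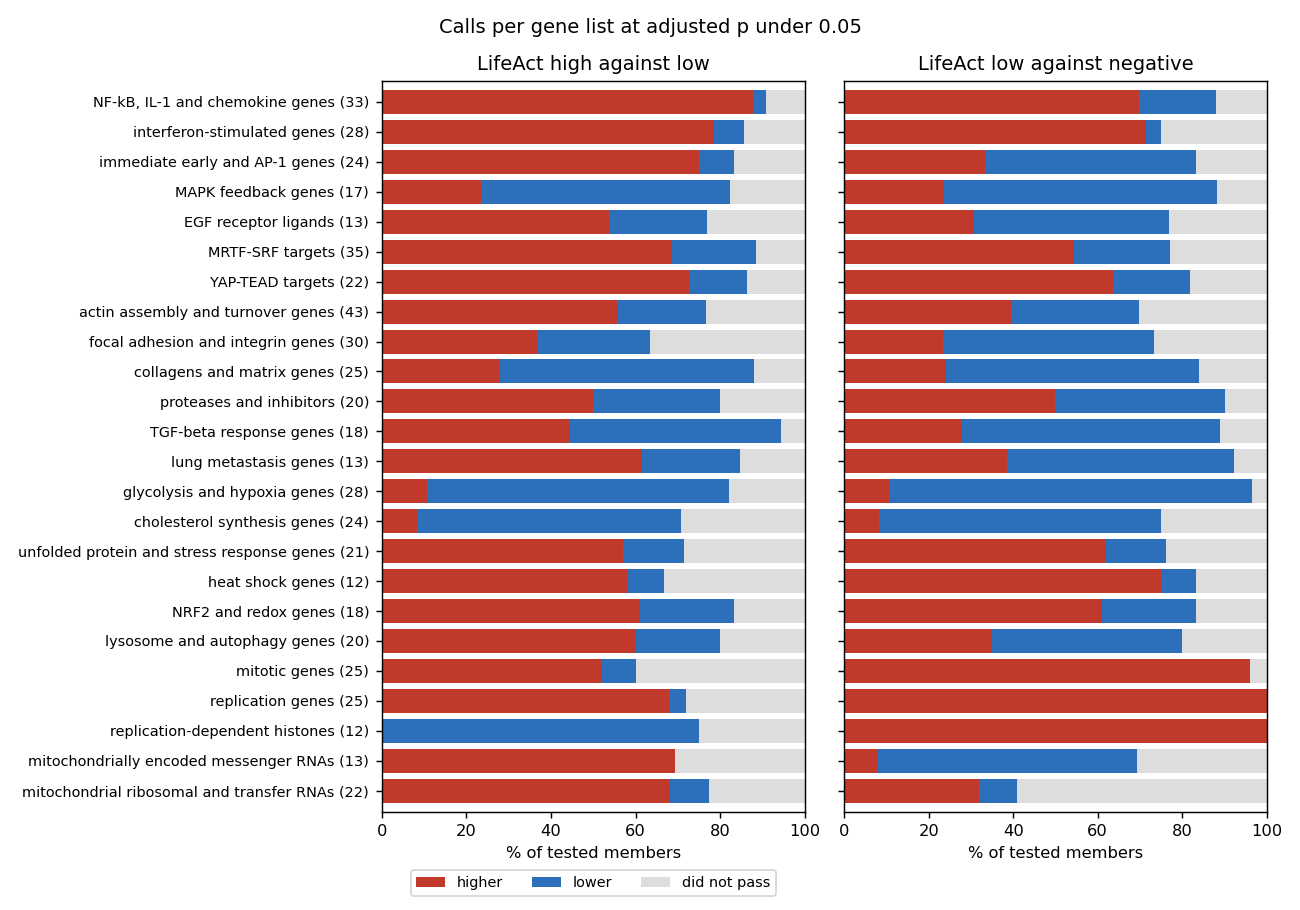
Share of the tested members of 24 gene lists that were higher, lower or did not pass at an adjusted p under 0.05, in LifeAct high against low on the left and in low against negative on the right, with the number tested after each name. NF-kB and interferon genes are mostly higher at both steps, glycolysis and cholesterol genes mostly lower, immediate early genes mostly higher on the left, and the histones lower on the left and higher on the right.

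Most histone genes turned down. Replication-dependent histones are made in S phase, when new DNA is packed, and their messages lack poly(A) tails, so depleted total RNA can show them where poly(A) selection cannot. Of 12 tested members of the histone list 12 were higher in low than negative cells and 9 lower in high than low, beside 26% and 23.7% of all genes. Taken by name (H1-, H2AC, H2BC, H3C or H4C, a family chosen after the values were seen), 41 of 66 were tested, of which 32 were lower and 1 higher in high than low and 40 higher in low than negative. All 32 lower ones turned down, beside 1.98% of all genes tested. By library totals 36 of 41 were lower in high than low, beside 6437 of all 21869 genes. The median log2 ratio of the family was -0.58 in high against low and 1.31 in low against negative. Its share of all counts was 0.246%, 0.251% and 0.259% in high, against 0.383%, 0.389% and 0.381% in low libraries (exact permutation test, two-sided, p = 0.1, the smallest that 3 against 3 allows), and negative libraries had 0.202%, 0.199% and 0.193%.

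H3C12 (chr6:27890315-27893106, minus strand), a histone H3 gene, was at 10.3, 9.64 and 8.92 CPM in negative, 36.3, 36.8 and 34 CPM in low and 17.5, 18.4 and 16.4 CPM in high libraries. Its log2 ratio was -1.03 ± 0.075 (SE) in high against low (edgeR, adjusted p = 2.5e-12) and 1.89 ± 0.084 (SE) in low against negative. H2AC13, a histone H2A gene, was at 16.9, 17.4 and 19.1 CPM in negative, 43.9, 46.9 and 42.8 CPM in low and 21.4, 21.4 and 22.1 CPM in high libraries, so that high libraries lay only slightly above negative ones. The linker histone H1-2 was at 442, 426 and 388 CPM in negative, 588, 599 and 611 CPM in low and 367, 327 and 351 CPM in high libraries. H1-4, another linker histone, was at 293, 283 and 276 CPM in negative, 438, 449 and 449.9 CPM in low and 239, 246 and 252 CPM in high libraries. Both were lowest in the high libraries. H2BC13, H2BC14, H3C3, H3C13, H2AC11 and H3C2 turned down with log2 ratios of -1.02 to -0.52 in high against low. H4C9 was the 1 histone higher in high than low (1.00). Several histone genes are near-identical copies (H3C14 and H3C15, H4C14 and H4C15, H2AC18 and H2AC19), whose reads the counting may have split or dropped.

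Most other genes of proliferating cells did not turn down with the histones. Of 25 replication genes all 25 were higher in low than negative cells (median log2 ratio 1.27), beside 26% of all genes, and in high against low 17 were higher and 1, MCM6, lower (median 0.24; 14 and 2 by library totals), beside 26.6% higher and 23.7% lower among all genes. CDC6, a loader of the replicative helicase, was at 21.2, 23.4 and 20.04 CPM in negative, 73.6, 77 and 74.5 CPM in low and 139.95, 139 and 139 CPM in high libraries. MCM4, a helicase subunit, and RRM2, of ribonucleotide reductase, had log2 ratios of 0.74 and 0.52 in high against low, beside 1.69 and 1.88 in low against negative. Of 25 mitotic genes 24 were higher in low than negative cells (median 0.83), beside 26% of all genes. In high against low 13 were higher and 2 lower (median 0.13), beside 26.6% and 23.7% of all genes. By library totals 8 were higher and 3 lower. The background of both lists by that scaling was 4655 higher and 6437 lower of 21869 genes. CDK1, the mitotic kinase, was at 101, 111 and 106 CPM in high and 82.7, 78.9 and 83.1 CPM in low libraries, while MKI67, the proliferation antigen, and PLK1 turned down slightly, with log2 ratios of -0.13 and -0.16 in high against low.

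**Figure D5:**
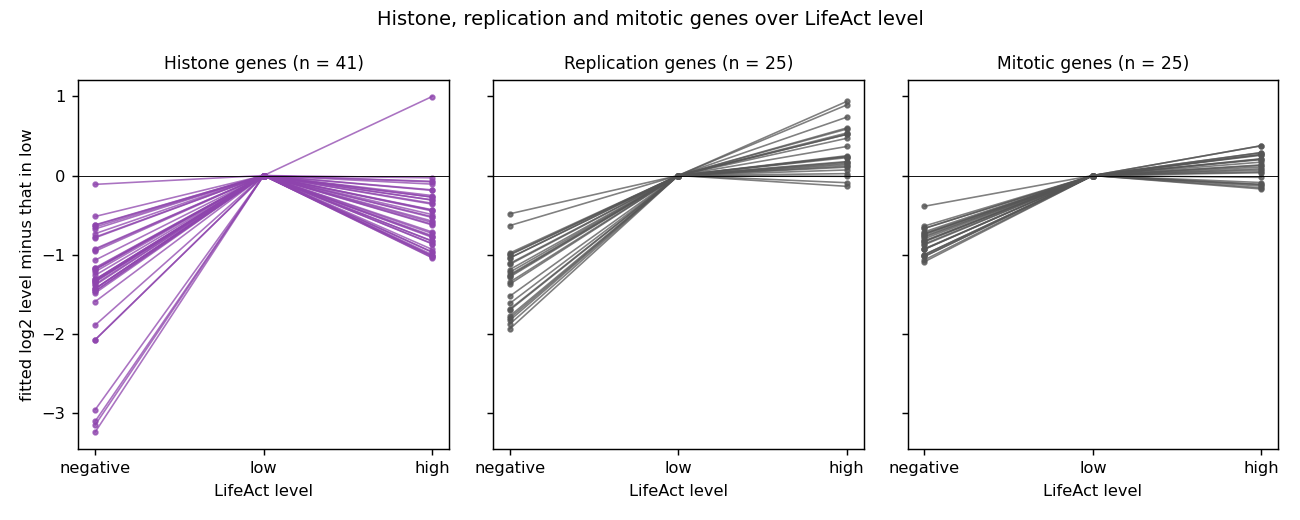
Fitted log2 level of each gene at the 3 LifeAct levels minus its level in low, for the 41 tested histone genes, 25 replication genes and 25 mitotic genes; each line is a gene. Histone lines peak at low with 1 exception, whereas replication and mitotic lines rise to low, and most end above it in high.

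Beside the histones, the genes that turned back with the largest steps were of several kinds. They were picked among genes called at both steps, by the size of the smaller step. Their tests and the separation of their groups are therefore no independent support. ARRDC4, an arrestin-related gene known to respond to glucose, turned up, at 10.5, 13.5 and 11.5 CPM in negative, 7.06, 6.84 and 6.17 CPM in low and 22.5, 23.8 and 23.3 CPM in high libraries. Its log2 ratio was 1.80 ± 0.098 (SE) in high against low (edgeR, adjusted p = 5.3e-15) and -0.82 ± 0.11 (SE) in low against negative (edgeR, adjusted p = 3.1e-07). AKR1B1, aldose reductase, was at 621, 594 and 544 CPM in negative, 384, 372 and 378 CPM in low and 616, 567 and 564 CPM in high libraries, so that high and negative libraries overlapped and low ones lay below both. TLR4, the receptor for bacterial lipopolysaccharide, was at 82.1, 85.2 and 92.8 CPM in negative, 52.4, 53.2 and 52.3 CPM in low and 73.8, 83.4 and 78.8 CPM in high libraries. The transcription factor SOX5, the zinc finger gene ZNF436 and the long noncoding RNAs LINC00862 and LINC00886 had log2 ratios of 0.60, 0.57, 0.81 and 0.75 in high against low, each after a fall at the first step.

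Most mitochondrially encoded messenger RNAs were higher in high than low cells by gene, while their summed share of counts overlapped. Of 13, 9 were higher and 0 lower (median log2 ratio 0.22), beside 26.6% higher and 23.7% lower among all genes, and 1 was higher and 8 lower in low than negative (median -0.18). Of the 13, 5 turned up, and 2 by library totals, beside 2.21% of all genes. Together they made up 3.72% to 4.32% of counts in high and 3.56% to 3.86% in low libraries. MT-ND6, a complex I subunit and the only one encoded on the light strand, was at 579, 712 and 787 CPM in high and 406, 447 and 527 CPM in low libraries, and MT-ND5, another complex I subunit, at 4016, 4282 and 4603 CPM in high and 3071, 3171 and 3371 CPM in low libraries. All mitochondrially encoded genes together made up 3.74%, 4.05% and 4.34% of counts in high, against 3.60%, 3.72% and 3.88% in low libraries; the ranges overlap (exact permutation test, two-sided, p = 0.2). The counting used no strand option, so overlapping genes of the 2 mitochondrial strands cannot be told apart.

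The genes that kept moving with the largest steps included both rises and falls. These too were picked among genes called at both steps, so their tests are no independent support. C3, complement component 3, was at 6.34, 5.76 and 4.03 CPM in negative, 25.9, 23.7 and 27.1 CPM in low and 117, 108 and 115 CPM in high libraries, with log2 ratios of 2.15 ± 0.069 (SE) in high against low and 2.25 ± 0.1 (SE) in low against negative (edgeR, adjusted p = 3.3e-20 and 1.5e-16). IL7R, the interleukin-7 receptor chain, was at 7.76, 8.35 and 6.48 CPM in negative, 31.7, 30.8 and 32.5 CPM in low and 126, 128 and 126 CPM in high libraries. SLAMF7, a receptor best known from lymphocytes, followed the same course, at 2.31, 3.3 and 3.48 CPM in negative, 14, 16.9 and 16 CPM in low and 65.2, 62.8 and 67.4 CPM in high libraries. Among those that kept falling, RAB17, a small GTPase of polarised epithelial traffic, was at 16.7, 17.3 and 17.8 CPM in negative, 4.27, 3.51 and 3.74 CPM in low and 1, 0.719 and 0.607 CPM in high libraries. LINC01844 and SHISAL1 had log2 ratios of -3.08 and -1.73 in high against low after -2.03 and -1.84 in low against negative, and 2 unnamed clones were also among the 8 largest.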

How the data were processed

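RNA of 9 LM2 libraries (3 each of LifeAct high, low and negative) was extracted with TRIzol, depleted of ribosomal RNA and read from both ends (150 bp), per the labels' protocols. The authors deposited raw counts of fragments by gene name, made, per the file headers, with featureCounts 2.0.1 on STAR alignments and the Ensembl release 103 annotation (GRCh38), with no strand option shown and no option for reads that map to several places or genes, which by that tool's defaults go uncounted. No version of STAR was given in the sources used here. The submitters' processing notes also list DESeq2 and hg38. All 9 columns were matched to samples by name, no row lacked a gene name, and 31 names on more than 1 chromosome are merged in the table.

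Counts were tested in R 4.3.3 with edgeR 4.0.16 (TMM scaling, filterByExpr with a minimum count of 10 by group, quasi-likelihood F test over all 9 libraries, Benjamini-Hochberg at 0.05 over all 21869 genes). Log2 ratios are the first group over the second, with a prior count of 0.125. The test was checked on simulated data. Libraries held 15581289 to 23678322 counts, and every pair of replicates differed beyond sampling noise. DESeq2 1.42.0 and limma 3.58.1 served as alternatives, with other scalings, filters, the replicate number as a block and leaving out each library in turn.

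Genes were named by a rule: 11 set genes, the 12 largest rises and falls with at least 5 CPM, the 8 with the largest smaller step in each pattern, and up to 4 members with the smallest p per list; other list members and the 4 families taken by name were named after their values were seen. The largest rises and falls also had to pass the test and to have no overlap between the CPM ranges of high and low libraries. The members and lists were chosen with earlier results of these data known. Some genes that meet the rule, and 1 list, are not reported here.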

Additional observations from a re-analysis of the deposited data

How the results depend on the processing

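Counts of genes higher and lower at each step stayed within 1.5 times the reported count under DESeq2 size factors, library totals, no filter, a minimum count of 50, DESeq2, limma voom, the omission of mitochondrial and structural RNAs, and leave-one-out, where genes higher in high than low ran from 5257 to 6177 and genes lower from 4536 to 5507. Library totals gave 788 genes that turned down and 260 that turned up, and 141 that turned down with 1.5-fold steps. DESeq2 gave 281 that turned down, 51 with 1.5-fold steps. With a minimum count of 50, which tests fewer genes, 364 kept rising, 46 turned down and 13 turned up at 1.5-fold steps. The 1.5-fold counts were added after the data were seen. Leaving out single libraries moved the turned-down count between 319 and 446 and the turned-up count between 365 and 500. Of 136 named genes, SRF alone changed sign: its ratio, which passes no test, was 0.0082 with DESeq2 size factors, 0.0068 with DESeq2, and, with single libraries left out, from -0.0502 to 0.048, above 0 without LifeAct_high replicate 2 (0.048) and without LifeAct_low replicate 2 (0.0313); the cause was not tested. The replicate numbers were not taken to pair the samples, since same-numbered libraries had correlations of deviations of -0.033 to 0.002; a fit with the replicate block gave 5840 genes higher and 5180 lower in high than low, 446 that turned down and 504 that turned up. With 3 libraries a group the smallest permutation p is 0.1, so shares of counts cannot pass 0.05; genes at a few counts per library are limited by depth.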

Other observations

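The protocadherin gamma, pregnancy-specific glycoprotein and zinc finger families were picked after their values were seen, and no test beyond the per-gene calls was made. Protocadherin gamma genes, adhesion proteins encoded by alternative first exons at 1 locus on chromosome 5, kept falling in all 22 tested, also under library totals, beside 12.3% of all genes. Their median log2 ratio was -1.57 in LifeAct high against low and -1.24 in low against negative. PCDHGB2 was at 44.1, 42.8 and 37.9 CPM in negative, 21.9, 18.6 and 23.2 CPM in low and 8.29, 8.23 and 10.7 CPM in high libraries, and PCDHGB7 at 19.9, 19.2 and 18.7 CPM in negative, 6.13, 9.28 and 8.38 CPM in low and 1.66, 1.37 and 1.82 CPM in high libraries. These genes share their last exons, and reads in shared exons are left uncounted by default, so the counts rest on the separate first exons. Pregnancy-specific glycoproteins, placental members of the CEA family, were higher in high than low cells in all 9 tested (median 1.60), beside 26.6% of all genes. Of the 9, 8 kept rising, beside 14.5% of all genes. PSG4 had the highest counts and was at 0.948, 0.841 and 1.34 CPM in negative, 5.14, 4.22 and 3.52 CPM in low and 15.2, 15 and 15.6 CPM in high libraries. The other members had few counts in the 3 negative libraries together, from 4 for PSG2 and PSG7 to 18 for PSG9. Their first steps thus rest on few reads. The family members are near-identical copies, so counts of single members are uncertain.

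Zinc finger genes named ZNF mostly encode repressors of the KRAB type. Of 429 tested, 244 were higher and 38 lower in high than low cells, beside 26.6% and 23.7% of all genes. Their median log2 ratio was 0.29. In low against negative 78 were higher and 104 lower, beside 26% and 23.6% of all genes. By library totals these were 101 and 88, where all 21869 genes had 6433 higher and 4559 lower. A list of long noncoding RNAs named as nuclear-retained split, with 5 of 12 higher and 6 lower in high than low, beside 26.6% and 23.7% of all genes. Whether all its members stay in the nucleus was not checked. NEAT1, the scaffold of nuclear paraspeckles, kept falling, at 6848, 6915 and 6942 CPM in negative, 2636, 2618 and 2649 CPM in low and 843, 939 and 854 CPM in high libraries, as did MALAT1, at 19862, 20233 and 22346 CPM in negative, 12390.5, 12378 and 12689.5 CPM in low and 8553, 9773 and 9416 CPM in high libraries. The host genes of small nucleolar RNAs SNHG1, SNHG12 and GAS5 kept rising, with log2 ratios of 0.89, 0.84 and 0.50 in high against low. Ribosomal protein genes moved little gene by gene, with 3 of 30 higher and 5 lower, beside 26.6% and 23.7% of all genes. Their median of -0.0046 turns to 0.0081 with DESeq2 size factors. Their summed share of all counts, which is not corrected for composition, was lower in high libraries. It was 1.97%, 1.87% and 1.90% in high, against 2.05%, 2.04% and 2.05% in low libraries (exact permutation test, two-sided, p = 0.1, the smallest possible). Negative libraries had 1.90%, 1.88% and 1.81%.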
